A study of Mus musculus with 6 samples.

Results

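The SLC25 family comprises nuclear-encoded carriers, most of which move metabolites across the inner mitochondrial membrane, and its transcripts were compared between the livers of WT mice and of mice without Fmo5. Members were taken as the genes of the deposited table whose symbol starts with Slc25a followed by a number, which gave 48 of the 54446 genes listed, 47 protein-coding genes and the pseudogene Slc25a5-ps. The libraries came from whole liver of male mice aged 32 weeks and fed chow, 3 per genotype. WT mice were C57BL/6J, and the Fmo5-/- mice belong to a knockout line of Fmo5, the gene of flavin-containing monooxygenase 5, made on that background, for which no tissue-specific driver is named. Both genotypes were bred at 1 site, housed in adjacent cages and sampled in the morning, and each mouse gave 1 library. Every p-value below therefore sets the difference of the genotypes against the spread between mice within them. Which mice shared a cage or litter is not stated, so effects of these cannot be told apart from genotype. The question was whether the loss of FMO5 goes with a different expression of the carriers.

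Carriers of this family share a fold of repeated pairs of membrane helices, and most exchange a substrate on 1 side of the inner membrane for another on the opposite side. They are made in the cytosol, received by TOM70 at the outer membrane, escorted by small TIM chaperones and inserted by the TIM22 complex. In the hepatocyte they serve fatty acid oxidation (acylcarnitine entry), the urea cycle (ornithine and aspartate exchange), gluconeogenesis and lipogenesis (malate and citrate export), the export of ATP, and the supply of cofactors, iron and glutathione to the matrix.

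Between 44886286 and 52338675 reads were counted on genes per library, and the family took 0.375%, 0.409% and 0.363% of them in WT and 0.381%, 0.355% and 0.357% in Fmo5-/- livers, ranges that overlap. Fmo5 itself was lower in every Fmo5-/- mouse, with normalized counts of 39808, 37405 and 30239.7 in WT and 1071, 1102 and 1194 in Fmo5-/- livers (log2 fold change -5.00). Normalized counts are the counts after correction for TMM-scaled library size, brought to the mean size of the 6 libraries. All 6 hepatocyte markers tested were among the abundant genes, and 0 of them were called different by edgeR or DESeq2. Markers of the Kupffer cell, the macrophage of the liver, had a higher mean in Fmo5-/- mice for 6 of 6 genes, 1 of which was called by edgeR (Clec4f, log2 fold change 0.70, adjusted p = 0.0275). With 1 library left out its adjusted p was 0.00845 to 0.102, under 0.05 only without WT 3 or Fmo5-/- 3. DESeq2 gave 5 of the 6 (Clec4f, Vsig4, Timd4, Cd5l and Marco) an adjusted p under 0.05, and the summed level of the 6 was 144 to 173 CPM, counts relative to all reads counted on genes in a library, in WT and 247 to 458 CPM in Fmo5-/- mice. Of these Kupffer cell markers 5 reached a mean normalized count of 500. Over all genes at that level 64% had a lower mean in Fmo5-/- mice. There edgeR called 1.61%, and DESeq2 called 2.77% higher. For 6 of 6 genes listed as lymphocyte markers the mean was also higher in Fmo5-/- mice. Their sums were 12.8 to 17.6 CPM in WT and 20.1 to 45.5 CPM in Fmo5-/- mice. By edgeR 0 were called, and by DESeq2 3 (Cd3e, Cd3d and Ptprc) had an adjusted p under 0.05. Of the 6, 1 reached a mean of 500. Under that mean only 36.3% of all tested genes had a lower mean in Fmo5-/- mice. At an unadjusted p under 0.05 by edgeR 4 of the 6 were higher. The shares over all genes were 15.1% under a mean of 500 and 7.62% at or above it. Ptprc, a gene of leukocytes in general, had the highest counts of the 6, so the sum is not one of lymphocytes alone. Its normalized counts were 630, 473 and 478.5 in WT and 1047, 1401 and 670 in Fmo5-/- livers. In whole tissue, more or fewer cells of a type cannot be told apart from more or less RNA per cell.

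Of the 48 members, 44 passed edgeR's filter on low counts, and 30 of these reached a mean normalized count of 500, the limit that the study also set. The 4 that did not pass were Slc25a41, with 0 reads in all 6 libraries, Slc25a54, with 1 read in all, Slc25a31, the adenine nucleotide carrier of the testis, with at most 8 reads in a library, and Slc25a43, with at most 12. A count of 0 allows up to 3 counts in a library, or between 0.0573 and 0.0668 CPM, a limit that covers counting error only.

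Levels of different carriers were compared per length, as CPM per kb of annotated exon (CPM/kb), in WT mice. The adenine nucleotide carrier Slc25a5, which exchanges matrix ATP for cytosolic ADP, was first with 181 ± 4.63 CPM/kb (SD, n = 3). Slc25a47, a carrier known from liver, followed with 151 ± 36.2 CPM/kb, and its libraries ranged from 128 to 193 CPM/kb, a range that includes the levels of Slc25a5 and of the next carrier. That next carrier was the citrate carrier Slc25a1 (139 ± 4.21 CPM/kb), followed by the glutathione carrier Slc25a39 (119 ± 3.92 CPM/kb) and the dicarboxylate carrier Slc25a10 (72.9 ± 14.5 CPM/kb). The aspartate/glutamate carrier Slc25a13 (53.0 ± 7.60 CPM/kb), the ornithine carrier Slc25a15 (48.8 ± 3.58 CPM/kb), the phosphate carrier Slc25a3 (46.3 ± 1.51 CPM/kb) and the ATP-Mg/phosphate carrier Slc25a23 (44.0 ± 2.17 CPM/kb) lay close together, and neighbours among these 4 did not differ beyond their spread. The carnitine/acylcarnitine carrier Slc25a20, number 10 in the order, had 29.4 ± 2.30 CPM/kb.

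**Figure D1:**
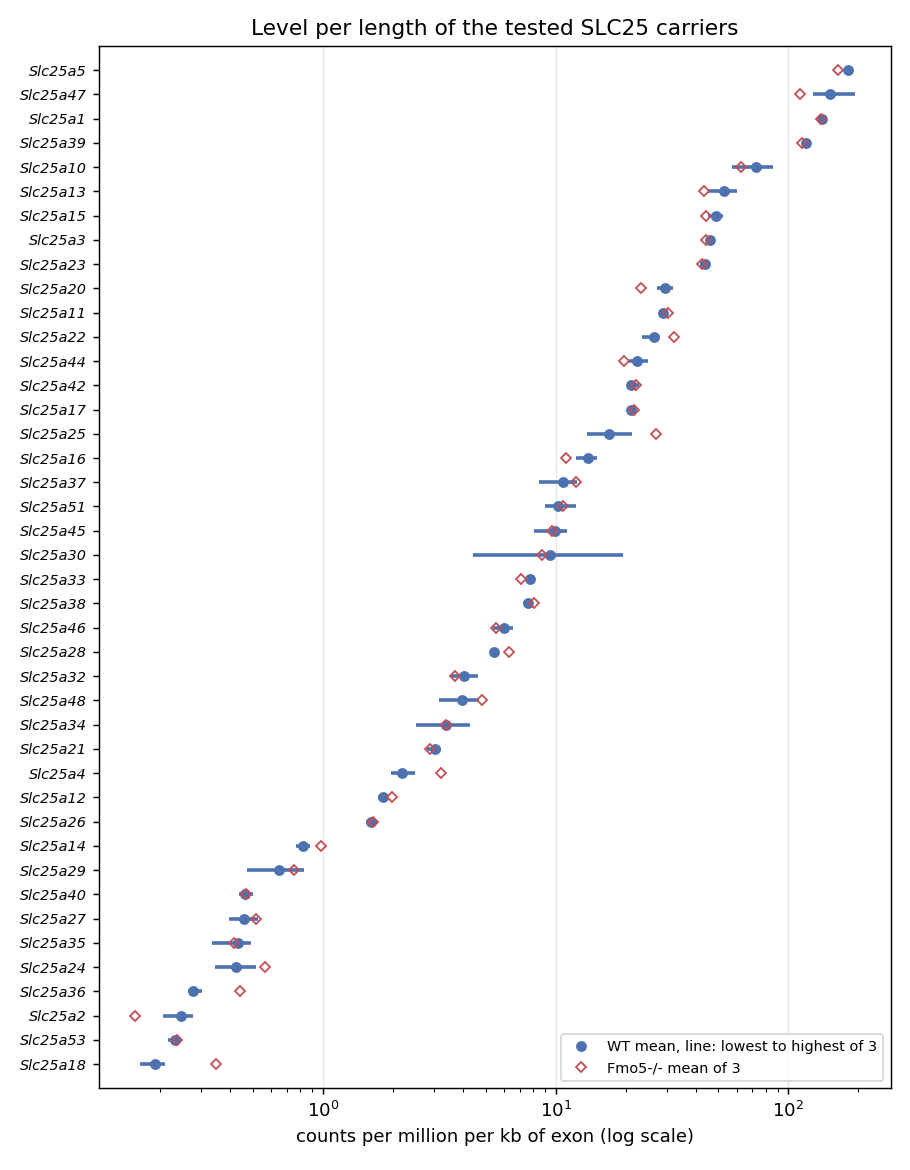
Level of 42 of the 43 tested protein-coding carriers in CPM per kb of exon, on a log axis, with the WT mean as a filled circle, the lowest to highest of the 3 WT libraries as a line and the mean of the 3 Fmo5-/- libraries as an open diamond, all without the TMM scaling used for the fold changes. Slc25a5 stands first in WT at 181 CPM/kb and Slc25a18 last at 0.191 CPM/kb, and the line of Slc25a30 is the longest.

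Several carriers exist as near relatives with the same substrate, and in this liver 1 form of most pairs made up nearly all of the sum per length. Slc25a5 accounted for 98.8% ± 0.123 of Slc25a5 plus Slc25a4, the form of heart and skeletal muscle, in WT mice (SD, n = 3). The liver aspartate/glutamate carrier Slc25a13 accounted for 96.6% ± 0.547 of its sum with the brain and muscle form Slc25a12, and Slc25a39 for 99.6% ± 0.0159 of its sum with Slc25a40. For the mitoferrins, which import iron, the division was more even, with 66.0% ± 4.35 as Slc25a37 and the rest as Slc25a28. Between the genotypes the shares overlapped for the mitoferrins and for Slc25a39 with Slc25a40. They also overlapped for Slc25a22 with Slc25a18 and for Slc25a15 with Slc25a2. The shares of other pairs in Fmo5-/- mice are given with the carriers below.

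By edgeR's quasi-likelihood test with adjustment over all 16734 genes tested, 1 of the 30 members with a mean of 500 or more was differentially expressed, at an adjusted p under 0.05, and it was lower in Fmo5-/- mice. Over all 7819 genes at that level the share called was 1.61%. That member was Slc25a20. At an unadjusted p under 0.05, 9 of the 30 were lower (Slc25a20, Slc25a13, Slc25a16, Slc25a5, Slc25a47, Slc25a15, Slc25a33, Slc25a46 and Slc25a10) and 0 higher, beside 17.6% of all such genes that were lower and 7.62% that were higher at that p. In 10 of the 30 the highest Fmo5-/- mouse lay below the lowest WT mouse, beside 21.9% of all such genes. By DESeq2, 5 members were lower at an adjusted p under 0.05 (Slc25a13, Slc25a16, Slc25a20, Slc25a47 and Slc25a5) and 0 higher, beside 6.77% of all such genes called lower and 2.77% called higher by that tool. Among the 14 tested members under 500, 0 were lower and 3 higher at an unadjusted p under 0.05 by edgeR (Slc25a36, Slc25a18 and Slc25a4), beside 3.65% lower and 15.1% higher of all tested genes at that level. With 3 mice against 3, a two-sided exact permutation test of a single gene cannot give a p below 0.1.

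The median log2 fold change of the 30 members was -0.16, and 24 of them had a lower mean in Fmo5-/- mice. Over all genes at that level the median was -0.062 and 64% had a lower mean. When genes under a mean of 500 were removed before fitting, 20 of the 30 members and 49.6% of all such genes had a lower mean, and the medians were -0.10 and 0.0018. Among the 14 tested members with a mean under 500, 7 were lower and 7 higher, beside 36.3% lower over all tested genes at that level. The plot of changes by substrate group shows the carriers with their intervals.

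**Figure D2:**
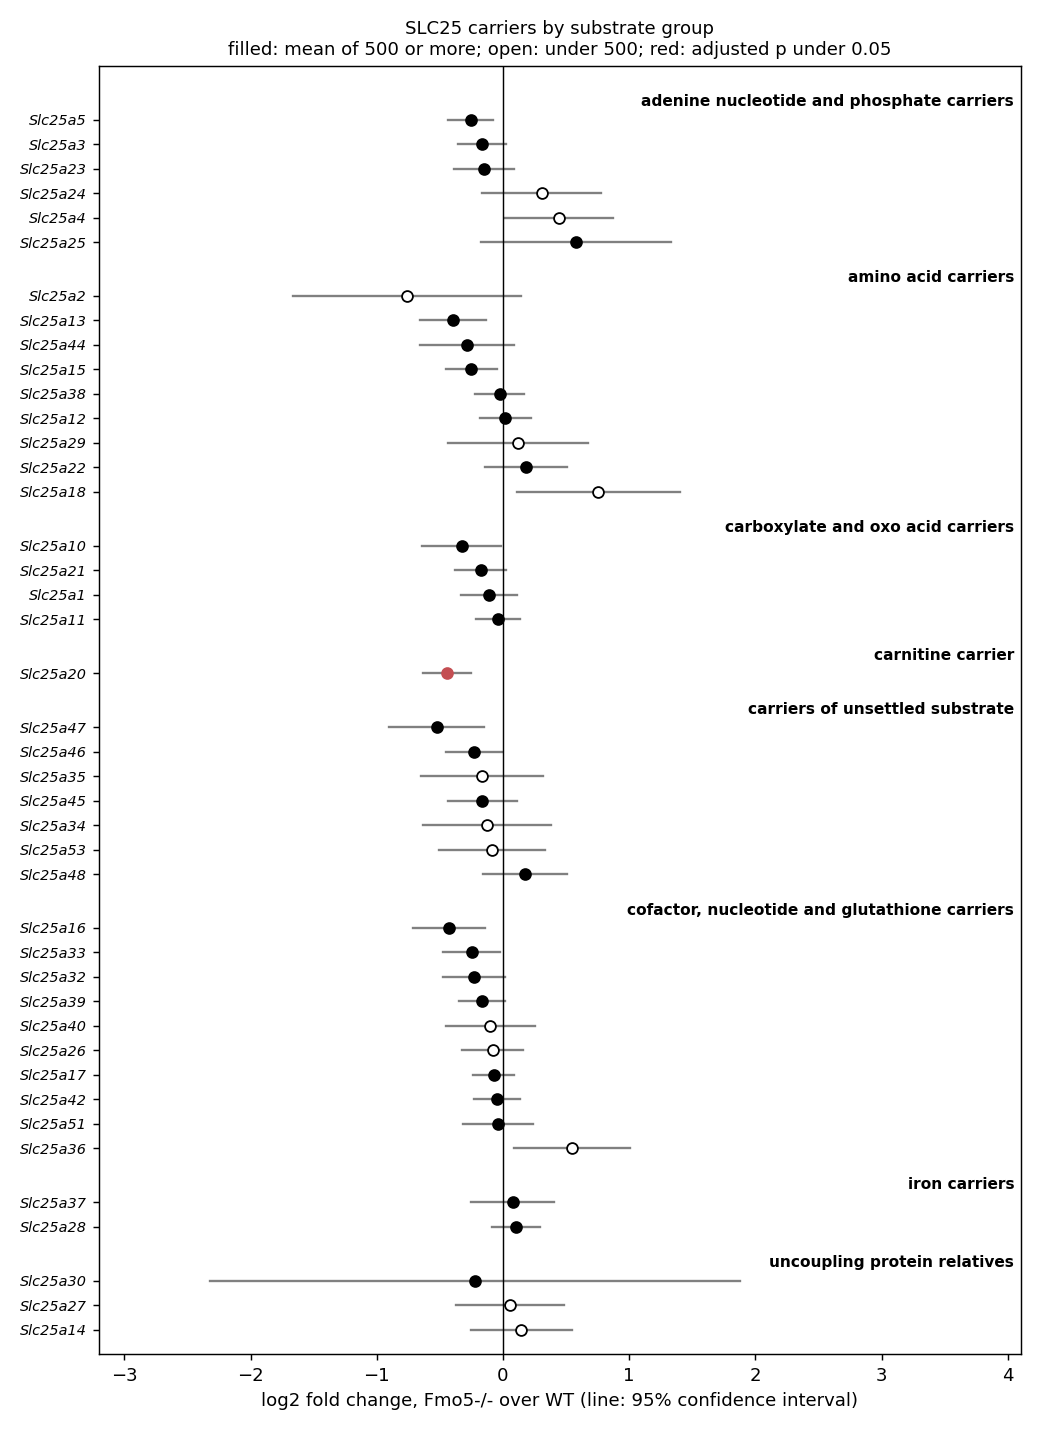
Log2 fold change of 42 of the 43 tested protein-coding carriers, Fmo5-/- over WT, with its 95% confidence interval from edgeR, arranged by substrate group. Filled circles are carriers whose mean normalized count reached 500, open circles those under it and the red circle is Slc25a20 at -0.44, the 1 carrier with an adjusted p under 0.05.

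Slc25a20 (chr9:108662088-108684641, plus strand) encodes the carnitine/acylcarnitine carrier, which takes long-chain acylcarnitines into the matrix in exchange for free carnitine. Its normalized counts were 7165, 7737 and 6759 in WT and 5516, 5346 and 5102 in Fmo5-/- livers. Every Fmo5-/- mouse lay below every WT mouse, and the group means were 7221 ± 491 in WT and 5321 ± 208 in Fmo5-/- mice (SD, n = 3 each). The log2 fold change was -0.44 (standard error, SE, 0.084, 95% confidence interval -0.63 to -0.25), with an adjusted p of 0.0468 from edgeR. The call lay close to the threshold. With any 1 of the 6 libraries left out the adjusted p was 0.0544 to 0.133, with a log2 fold change of -0.48 to -0.39, and it was 0.0663 when genes under a mean of 500 were removed before fitting.

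The enzymes on either side of this carrier were all lower in mean, and 1 of the 3 was called by edgeR and 2 (Cpt2 and Crat) by DESeq2. Beside this and the later lists of partner genes stand the shares over all genes with a mean of 500 or more. There 64% were lower in mean, edgeR called 1.61%, and DESeq2 called 6.77% lower and 2.77% higher. Cpt2, the inner-membrane enzyme that returns the acyl group from carnitine to coenzyme A, had normalized counts of 8456, 8801 and 7276 in WT and 5548, 6059 and 5873 in Fmo5-/- livers. The genotypes did not overlap, and the log2 fold change was -0.49 (SE 0.095, adjusted p = 0.0468) by edgeR. Its adjusted p was 0.0389 to 0.144 when 1 library was left out, with only the value without WT 3 under 0.05. Cpt1a, the outer-membrane enzyme that makes the acylcarnitine, had 14032, 16639.96 and 12760.1 in WT and 12398, 11338 and 11078 in Fmo5-/- livers, and Crat, which acts on acetyl and short acyl groups, had 3520.2, 2769.6 and 2547 in WT and 2139.8, 1921 and 1685 in Fmo5-/- livers. Neither showed overlap between the genotypes, and neither passed edgeR's test, with log2 fold changes of -0.32 (SE 0.11, adjusted p = 0.146) for Cpt1a and -0.62 (SE 0.13, adjusted p = 0.0594) for Crat. DESeq2 gave adjusted p-values of 0.0700 for Cpt1a and 0.00102 for Crat. Without the second WT mouse the log2 fold change of Cpt1a was -0.21.

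**Figure D3:**
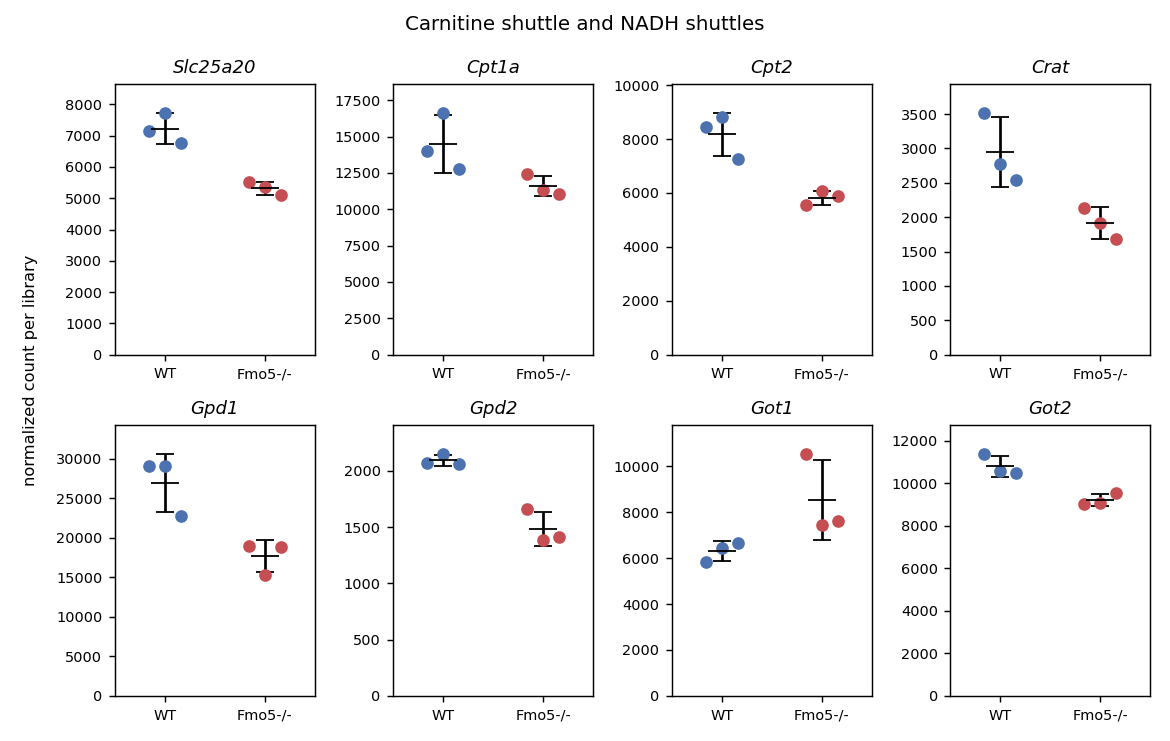
Normalized count per library of Slc25a20, the carnitine shuttle enzymes and enzymes of the glycerophosphate and malate-aspartate shuttles, with points for the 3 mice of each genotype and bars for mean ± SD. Slc25a20 had means of 7221 in WT and 5321 in Fmo5-/- mice, Got1 is the gene with the higher values in Fmo5-/- mice, and the genotypes overlap in none of the 8 panels. Of all 7819 genes with a mean of 500 or more, 1712 were lower and 734 higher in Fmo5-/- mice without overlap.

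The promoters of Slc25a20, of Slc25a13 and of Slc25a5, the carrier with the highest level, are shown as the start regions of 3 carriers whose genotypes did not overlap. Each line gives the 250 bases before the RefSeq start in build GRCm38.p6, 5′ to 3′ on the strand of the gene, and capitals mark matches on either strand to the letters named after them.
Slc25a20, chr9:108661886-108662135, plus strand: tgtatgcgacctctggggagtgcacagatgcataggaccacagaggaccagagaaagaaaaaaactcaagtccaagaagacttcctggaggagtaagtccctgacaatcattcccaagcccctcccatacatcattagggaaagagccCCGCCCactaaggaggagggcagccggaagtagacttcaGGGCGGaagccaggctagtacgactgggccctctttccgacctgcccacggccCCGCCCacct
Slc25a13, chr6:6217174-6217423, minus strand: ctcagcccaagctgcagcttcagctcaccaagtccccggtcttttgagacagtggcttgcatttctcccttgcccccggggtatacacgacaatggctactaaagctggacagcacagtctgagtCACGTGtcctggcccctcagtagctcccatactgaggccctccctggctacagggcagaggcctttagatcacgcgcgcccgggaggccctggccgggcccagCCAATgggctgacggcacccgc
Slc25a5, chrX:36795347-36795596, plus strand: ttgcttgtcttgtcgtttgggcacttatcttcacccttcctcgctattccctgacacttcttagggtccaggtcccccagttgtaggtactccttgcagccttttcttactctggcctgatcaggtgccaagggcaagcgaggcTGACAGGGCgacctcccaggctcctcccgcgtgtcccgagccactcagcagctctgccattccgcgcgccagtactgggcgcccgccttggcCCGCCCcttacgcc
RefSeq starts were matched for 36 of the 48 members by symbol, with the first listed start of each. The shares over all 32841 windows take every listed start, so those windows were not matched to the windows of the members. The motifs searched on both strands were GGGCGG for the GC box, CCAAT for the site of NF-Y, TATAAA for the site of the TATA-binding protein, CACGTG for the E-box, TGACNNNGC for the core of the antioxidant response element, AGGTCA alone for nuclear receptors and, for PPARA with RXR, a pair of AGGTCA copies with 1 base between them. GGGCGG was found in 24 of the 36 windows, Slc25a20 and Slc25a5 included, and in 32.7% of all 32841 promoter windows of that length. CCAAT was found in 16 of 36 and in 33.9% of all. TATAAA was found in 1 of 36, that of Slc25a18, and in 12.4% of all, and CACGTG in 6 of 36, with Slc25a13 among them, and in 6.02% of all. TGACNNNGC was found in 6 of 36, including Slc25a5, and in 10.2% of all. AGGTCA alone was found in 4 of 36 (Slc25a34, Slc25a39, Slc25a45 and Slc25a47) and in 14.0% of all, and the pair was found in 0 of 36 and in 0.0335% of all. A match describes the letters of the window and is no evidence of binding. The RefSeq start lay 48 bases from the annotated 5′ end of Slc25a20 in GENCODE, 54 from that of Slc25a5 and 0 from that of Slc25a13. The distance was 15083 bases for Slc25a47, 440 for Slc25a11 and 429 for Slc25a39, and their windows do not hold that end. It was 222 for Slc25a4, 190 for Slc25a18 and 116 for Slc25a36, whose windows hold that end but do not stop at it.

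Slc25a13 (chr6:6041218-6217173, minus strand) encodes citrin, which exports aspartate for glutamate and works in the malate-aspartate shuttle and in the supply of aspartate to the urea cycle. Normalized counts were 10351, 11492 and 8771 in WT and 8528, 7234 and 7489.8 in Fmo5-/- livers. The genotypes did not overlap, but the third WT mouse lay only just above the first Fmo5-/- mouse. The log2 fold change was -0.40 (SE 0.12, adjusted p = 0.100) by edgeR, and DESeq2 gave an adjusted p of 0.0247. Slc25a12 had a log2 fold change of 0.018 (95% confidence interval -0.18 to 0.22). The share of Slc25a13 in the pair was 95.6% ± 0.0820 in Fmo5-/- mice (SD, n = 3), with every Fmo5-/- value below every WT value.

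Among the shuttle's 4 enzymes 0 were called by edgeR and 1, Got1, was called higher by DESeq2 (adjusted p = 0.0489). Got1, the cytosolic aspartate aminotransferase, had the higher values in Fmo5-/- mice (5831, 6451 and 6671 in WT and 10542, 7449 and 7627 in Fmo5-/- livers), without overlap, with a log2 fold change of 0.43 (SE 0.14, adjusted p = 0.120) by edgeR, and 0.25 without the first Fmo5-/- mouse, the highest. Its mitochondrial counterpart Got2 had a log2 fold change of -0.23 (SE 0.081, adjusted p = 0.148) by edgeR, and the malate dehydrogenases Mdh1 and Mdh2 had -0.17 and -0.15, with adjusted p-values of 0.299 and 0.320. The glycerophosphate shuttle moves the same reducing equivalents without a carrier. Its mitochondrial enzyme Gpd2 had normalized counts of 2070.4, 2150.3 and 2057 in WT and 1660.04, 1386 and 1415 in Fmo5-/- livers and was called lower by edgeR, at -0.49 (SE 0.089, adjusted p = 0.0430). The cytosolic Gpd1 (29047, 29085 and 22735 in WT and 18905, 15331 and 18889.9 in Fmo5-/- livers) did not pass, at -0.61 (SE 0.13, adjusted p = 0.0554), and DESeq2 gave it an adjusted p of 0.000531. Leaving out 1 library gave an adjusted p of 0.0488 to 0.123 for Gpd2, under 0.05 only without Fmo5-/- 3.

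Of the 9 amino acid carriers 5 had a lower and 4 a higher mean in Fmo5-/- mice, with Slc25a38, Slc25a29 and Slc25a12 changing sign under other settings. Of the 9, 0 were called by edgeR and 1, Slc25a13, by DESeq2. The ornithine carrier Slc25a15 (chr8:22375551-22398597, minus strand) brings ornithine into the matrix for the urea cycle and takes citrulline out. Its normalized counts were 14139, 14718 and 12953 in WT and 12348, 10979.6 and 11830.1 in Fmo5-/- livers. All Fmo5-/- mice were below all WT mice, and the log2 fold change was -0.25 (SE 0.091, adjusted p = 0.157) by edgeR. Its relative Slc25a2, an intronless gene, was low, with normalized counts of 18.0, 19.0 and 14.3 in WT and 10.2, 14.7 and 4.91 in Fmo5-/- livers. Of the 5 urea cycle enzymes 0 were called by edgeR and 2 were called lower by DESeq2, among them Asl (adjusted p = 0.0386), with log2 fold changes from -0.35 for Asl, which splits argininosuccinate, to 0.091 for Ass1, which makes it (0.0092 without the first Fmo5-/- mouse). The ornithine transcarbamylase Otc, the enzyme that receives ornithine in the matrix, had 27483, 27229 and 26143 in WT and 22405, 20599 and 24225 in Fmo5-/- livers and a log2 fold change of -0.27 (SE 0.092, adjusted p = 0.140) by edgeR.

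The remaining amino acid carriers did not pass the test either. The glutamate carrier Slc25a22 (0.18), Slc25a44, which imports branched-chain amino acids (-0.28), the glycine carrier Slc25a38 of haem synthesis (-0.026) and the basic amino acid carrier Slc25a29 (0.12) lay on both sides of 0, with adjusted p-values from 0.353 to 0.893 by edgeR. Single mice moved these values, with 0.019 for Slc25a22 without the first Fmo5-/- mouse and, for Slc25a44, -0.11 without the second and -0.44 without the first. Slc25a18, a second glutamate carrier, was detected at normalized counts of 15.9, 20.1 and 19.4 in WT and 35.4, 22.9 and 35.3 in Fmo5-/- livers. It was singled out after its values were seen, since it was 1 of 2 tested members in which all Fmo5-/- mice lay above all WT mice, both with a mean under 500, where 17.8% of all tested genes did so. Its log2 fold change was 0.75 (SE 0.29, adjusted p = 0.172) by edgeR. With the reads of 1 strand it was 0.47 (adjusted p = 0.419 by edgeR), and its exons overlap those of Atp6v1e1.

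Of the 6 tested carriers of adenine nucleotides and phosphate 3 had a lower and 3 a higher mean in Fmo5-/- mice, with 0 called by edgeR and 1, Slc25a5, by DESeq2. Slc25a5 (chrX:36795651-36798807, plus strand) had the smallest spread between mice of a genotype of the 30 abundant members. Normalized counts were 14871, 14904 and 15658 in WT and 12529, 12634 and 12925 in Fmo5-/- livers, with no overlap. The log2 fold change of -0.25 (SE 0.079, adjusted p = 0.114) by edgeR did not pass, and DESeq2 gave an adjusted p of 0.0244. Slc25a4, the muscle form, was low, with 251, 231 and 299 in WT and 331, 453 and 278 in Fmo5-/- livers, and had a log2 fold change of 0.44 (SE 0.19, adjusted p = 0.216) by edgeR, and 0.23 without the second Fmo5-/- mouse. The share of Slc25a5 in the pair was 98.1% ± 0.489 in Fmo5-/- mice, against 98.8% ± 0.123 in WT mice (SD, n = 3 each), without overlap. Of the muscle markers, Ckm, Myh7 and Mb had at most 2 reads in any library. Acta1 had 0, 0 and 2 reads in WT and 4, 3 and 0 in Fmo5-/- livers, and Myh6 had 0 reads in each WT and 18, 1 and 0 in Fmo5-/- livers. The sum of the whole list of 8 muscle and brown fat markers, 7.64 to 9.71 CPM in WT and 6.50 to 8.92 CPM in Fmo5-/- mice, was mostly that of Ppargc1b, Cidea and Cox7a1. Of these Cidea, a lipid droplet gene known from brown fat, was lower in Fmo5-/- livers (83, 124 and 65 reads in WT and 3, 2 and 2 in Fmo5-/- livers, log2 fold change -5.39, adjusted p = 0.000848 by edgeR, at a mean under 500), and the part of other cell types in the Slc25a4 values was not tested. Reads that map to several places, as those of Slc25a5 and its processed copies can, were not counted. The pseudogene Slc25a5-ps had normalized counts of 15.9, 13.4 and 15.3 in WT and 11.2, 8.26 and 7.85 in Fmo5-/- livers. Of its exonic bases 102 overlap exons of Fhit on the opposite strand.

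The phosphate carrier Slc25a3, which brings in the phosphate for ATP synthesis, had normalized counts of 12642, 13229 and 13246 in WT and 11542, 10991 and 12313 in Fmo5-/- livers, without overlap, and a log2 fold change of -0.17 (SE 0.084, adjusted p = 0.290) by edgeR. Slc25a23 and Slc25a25 are calcium-regulated carriers that exchange ATP-Mg for phosphate, and they lay on opposite sides of 0. Slc25a25 had 6419.8, 5366 and 8573 in WT and 14761, 7510.04 and 8079 in Fmo5-/- livers, so that 1 Fmo5-/- mouse stood far above the other two. Its log2 fold change was 0.58 (SE 0.31, adjusted p = 0.345) by edgeR, and 0.20 without that mouse. Slc25a23 made up 72.2% ± 5.55 of the pair per length in WT and 61.8% ± 6.67 in Fmo5-/- mice (SD, n = 3 each), and these shares overlapped. Slc25a24, another carrier of that kind, was low, with 60.4, 70.3 and 90.0 in WT and 84.8, 101 and 87.4 in Fmo5-/- livers, and had a log2 fold change of 0.31 (95% confidence interval -0.17 to 0.78).

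Slc25a47 (chr12:108836046-108856815, plus strand) took the most counts of the family, 11.7% of all member counts in WT and 9.23% in Fmo5-/- mice. Its transport substrate has long been unsettled. Normalized counts were 20186, 28825 and 19476 in WT and 18028, 13855 and 15739 in Fmo5-/- livers. The genotypes did not overlap, and the second WT mouse stood well above the others. The log2 fold change was -0.52 (SE 0.16, adjusted p = 0.120) by edgeR, the lowest of the 30 abundant members, and -0.32 without the second WT mouse. DESeq2 gave an adjusted p of 0.0198.

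Of the 7 tested carriers without a settled substrate 6 had a lower mean in Fmo5-/- mice, with 0 called by edgeR and 1, Slc25a47, by DESeq2. Slc25a35 turned to 0.21 with the reads of 1 strand, and with 1 library left out Slc25a34 reached 0.066 and Slc25a53 0.0013. Slc25a46 (chr18:31556111-31609911, minus strand) sits in the outer membrane and takes part in mitochondrial fission and fusion and in lipid exchange. It had normalized counts of 1819, 1663 and 1493 in WT and 1511, 1297 and 1435 in Fmo5-/- livers, which overlapped, and a log2 fold change of -0.23 (SE 0.10, adjusted p = 0.213) by edgeR, and -0.15 without the first WT mouse. The other 5 tested genes of the group without a settled substrate (Slc25a34, Slc25a35, Slc25a45, Slc25a48 and Slc25a53) had log2 fold changes from -0.17 to 0.18 and overlapped between the genotypes. With 1 library left out Slc25a48 had 0.047 to 0.31 and Slc25a45 -0.29 to -0.079.

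Slc25a16 (chr10:62920633-62946498, plus strand) is linked to the entry of coenzyme A into mitochondria. Its normalized counts were 3443, 3619 and 3010.1 in WT and 2833, 2054 and 2610.5 in Fmo5-/- livers. The genotypes did not overlap, and the second Fmo5-/- mouse was the lowest of the 6. The log2 fold change was -0.43 (SE 0.13, adjusted p = 0.102) by edgeR, and DESeq2 gave an adjusted p of 0.0319. Slc25a42, the other coenzyme A carrier, had 6302, 6833 and 6189.9 in WT and 6458, 6139 and 6096 in Fmo5-/- livers, which overlapped, and a log2 fold change of -0.048 (95% confidence interval -0.23 to 0.13). Slc25a42 made up 60.6% ± 1.43 of the pair per length in WT and 66.8% ± 3.27 in Fmo5-/- mice (n = 3 each, SD), and the libraries did not overlap.

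The pyrimidine nucleotide carrier Slc25a33 (chr4:149744036-149774277, minus strand) had normalized counts of 723, 733 and 779 in WT and 571, 701 and 611 in Fmo5-/- livers, without overlap. Its log2 fold change was -0.25 (SE 0.10, adjusted p = 0.191) by edgeR. Slc25a36, which carries the same nucleotides, was low and had the higher values in Fmo5-/- mice (130.3, 145 and 129 in WT and 171, 259 and 161 in Fmo5-/- livers). It was singled out after its values were seen, and its log2 fold change was 0.55 (SE 0.20, adjusted p = 0.163) by edgeR, and 0.30 without the second Fmo5-/- mouse, the highest. Slc25a33 made up 96.6% ± 0.298 of the pair per length in WT and 94.2% ± 0.933 in Fmo5-/- mice (SD, n = 3 each), without overlap. The Kupffer cell markers and the lymphocyte list, which includes the general leukocyte gene Ptprc, had their higher sums in the same 3 mice. The part of such cells in the values of Slc25a36 was not tested.

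Slc25a39, which imports glutathione together with Slc25a40, was the highest of the cofactor group per length. It had normalized counts of 16413, 17052 and 16417 in WT and 15218, 14276 and 15006 in Fmo5-/- livers, which did not overlap, and a log2 fold change of -0.16 (SE 0.081, adjusted p = 0.276) by edgeR. Of the 11 carriers of the group 10 had a lower mean in Fmo5-/- mice, with 0 called by edgeR and 1, Slc25a16, by DESeq2. Slc25a42 and Slc25a51 turned to 0.017 and 0.023 when genes under a mean of 500 were removed before fitting. Slc25a51, the NAD carrier, Slc25a32, the folate carrier, Slc25a26, which brings in S-adenosylmethionine, Slc25a40 and the peroxisomal Slc25a17 ranged from -0.23 to -0.042 and overlapped between the genotypes. Slc25a32, the lowest of these, had -0.13 without the second WT mouse.

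**Figure D4:**
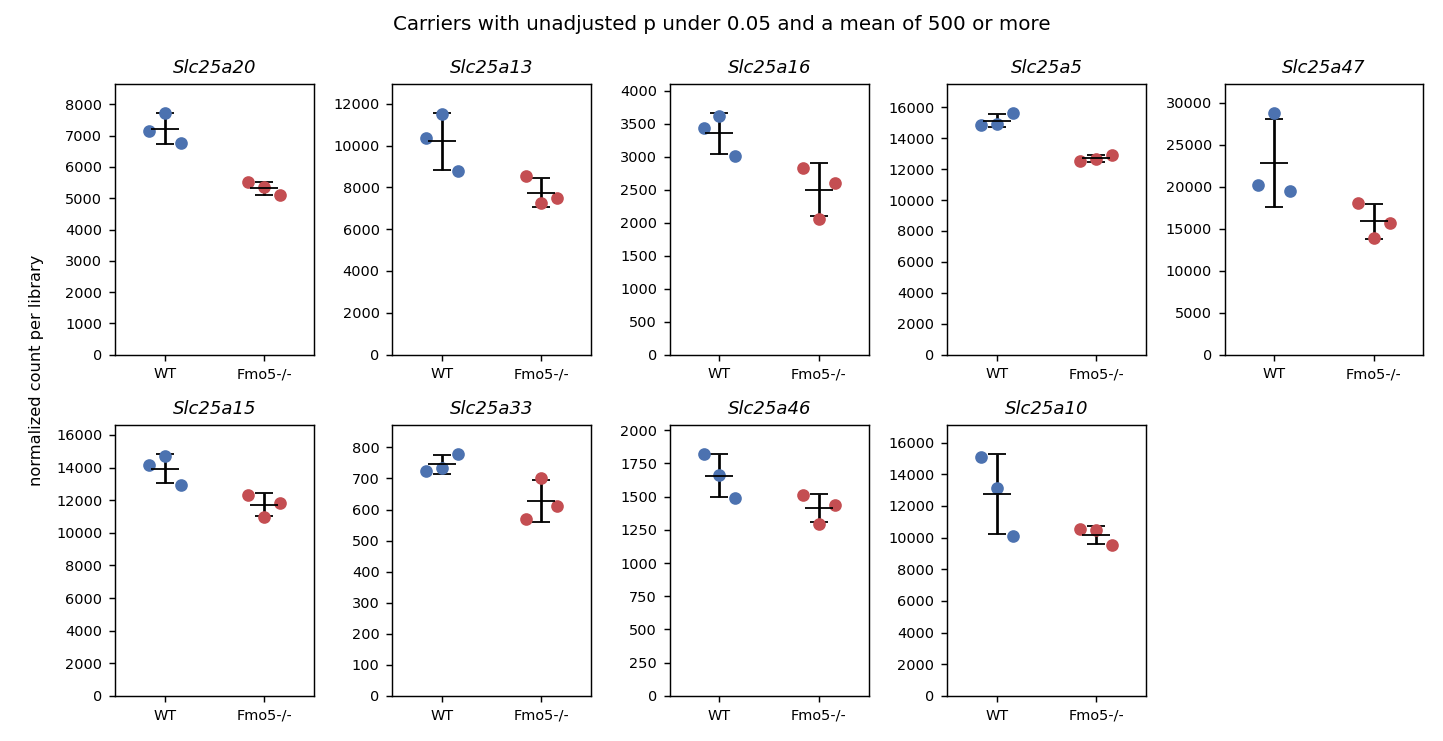
Normalized count per library of the 9 carriers with an unadjusted p under 0.05 and a mean of 500 or more, with points for the 3 mice of each genotype, bars for mean ± SD and axes that start at 0. In 7 of the panels the Fmo5-/- points lie below all WT points, and in those of Slc25a46 and Slc25a10 they overlap.

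The carboxylate carriers feed gluconeogenesis and lipid synthesis, and 4 of 4 had a lower mean in Fmo5-/- mice, with 0 called by either tool (Slc25a10 had an adjusted p of 0.0195 in edgeR with no filter on low counts), although Slc25a11 turned to 0.025 when genes under a mean of 500 were removed before fitting. The dicarboxylate carrier Slc25a10 (chr11:120491840-120499187, plus strand), which exchanges malate or succinate for phosphate, had normalized counts of 15088, 13127 and 10081 in WT and 10545, 10466 and 9521 in Fmo5-/- livers. The first WT mouse was the highest and the third lay among the Fmo5-/- mice. The log2 fold change was -0.33 (SE 0.14, adjusted p = 0.213) by edgeR, and -0.18 without the first WT mouse. The citrate carrier Slc25a1 had 14828, 15436 and 15526 in WT and 15555, 12617 and 14174 in Fmo5-/- livers, which overlapped, and a log2 fold change of -0.11 (SE 0.10, adjusted p = 0.546) by edgeR. The oxoglutarate carrier Slc25a11 had a log2 fold change of -0.039 (95% confidence interval -0.21 to 0.13) and the oxodicarboxylate carrier Slc25a21, which had no overlap, -0.18 (-0.38 to 0.021). Of 3 enzymes around the export of citrate, Cs, which makes it, Acly, which splits it, and Me1, which acts on malate, 0 were called by edgeR and 1, Me1, was called lower by DESeq2 (adjusted p = 0.00629). Me1, the malic enzyme of the cytosol, had 12408, 8338 and 11622 in WT and 5856, 2580.1 and 4699 in Fmo5-/- livers, without overlap, and a log2 fold change of -1.30 (SE 0.32, adjusted p = 0.0961) by edgeR.

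The mitoferrins Slc25a37 and Slc25a28 did not pass the test, with log2 fold changes of 0.079 (SE 0.14, adjusted p = 0.799) and 0.10 (SE 0.083, adjusted p = 0.516) by edgeR. Slc25a37, the higher of the pair per length, had normalized counts of 3783, 2562 and 3504 in WT and 3765, 3544 and 3094 in Fmo5-/- livers, and its log2 fold change turned to -0.070 without the second WT mouse.

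Slc25a30, an uncoupling protein relative, varied most between mice of 1 genotype. It had normalized counts of 1063, 4449 and 1036 in WT and 894, 2110.2 and 2612 in Fmo5-/- livers. The second WT mouse stood far above the other two, and 1 Fmo5-/- mouse lay below all others. The pooled SD of its log2 values within genotypes was 1.03, larger than that of 99.7% of the genes with a mean of 500 or more, whose median was 0.115. Its log2 fold change of -0.22 (SE 0.79, adjusted p = 0.903) by edgeR turned to 0.84 without the second WT mouse and to 0.11 without the first Fmo5-/- mouse. For Slc25a25 the pooled SD was 0.449, and for Slc25a5 it was 0.0340. Slc25a14 and Slc25a27, relatives best known from brain, were low and had log2 fold changes of 0.14 (95% confidence interval -0.26 to 0.54) and 0.054 (-0.38 to 0.48). Over the 30 abundant members the median pooled SD was 0.121.

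**Figure D5:**
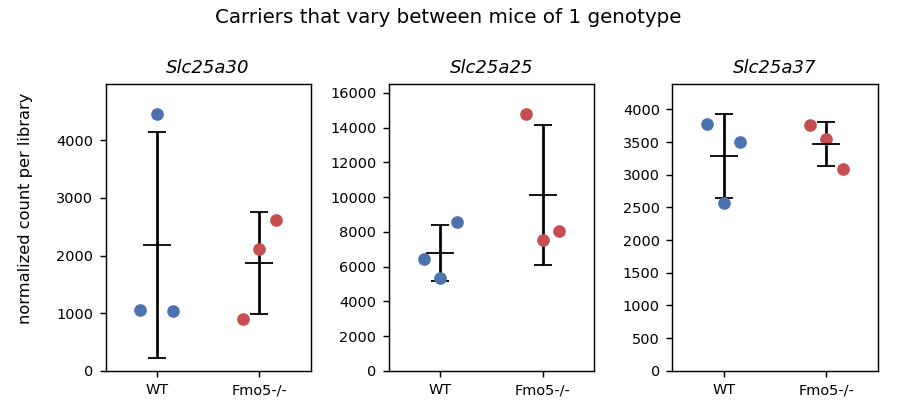
Normalized count per library of 3 carriers that vary between mice of 1 genotype, with points for the 3 mice of each genotype and bars for mean ± SD. A single WT mouse is high for Slc25a30 (4449) and low for Slc25a37 (2562), and a single Fmo5-/- mouse is high for Slc25a25 (14761).

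Family proteins under other symbols were also read. Ucp2, the uncoupling protein of macrophages and many other cells, had normalized counts of 1027, 1174 and 853 in WT and 1776, 2085 and 1243 in Fmo5-/- livers, without overlap, and a log2 fold change of 0.74 (SE 0.20, adjusted p = 0.0938) by edgeR, while DESeq2 gave an adjusted p of 0.00388. Without 1 library edgeR's adjusted p was 0.00977 to 0.229, under 0.05 only without Fmo5-/- 3. The Kupffer cell markers, with 144 to 173 CPM in WT and 247 to 458 CPM in Fmo5-/- mice, were higher in the same mice, and their part in the Ucp2 values was not tested. Ucp1 of brown fat and Ucp3 of muscle had at most 4 reads in a library. Mtch2, an outer-membrane insertase, had 7121, 6841 and 7119 in WT and 6159, 5796 and 6202 in Fmo5-/- livers, without overlap, and a log2 fold change of -0.22 (SE 0.077, adjusted p = 0.150) by edgeR. The import machinery of the carriers had a lower mean in Fmo5-/- mice for 10 of 10 genes (8 to 10 of 10 under the other settings, and 5 of 7 when genes under a mean of 500 were removed before fitting), with 0 called by either tool. Of the 10, 7 reached a mean of 500, where 64% of all genes had a lower mean, and 3 did not, where 36.3% had. The median log2 fold change was -0.16 over the 10, beside -0.062 over all genes with a mean of 500 or more and 0.12 over those under it. The import receptor Tomm70a had -0.27 (SE 0.092, adjusted p = 0.139) and the chaperone Timm9 -0.28 (SE 0.088, adjusted p = 0.120) by edgeR. Among 10 channels and carriers of other families 1 was called by either tool, Sfxn1, the serine carrier of 1-carbon metabolism, with 4998, 4841 and 4792 in WT and 3299.6, 3314 and 3647 in Fmo5-/- livers and a log2 fold change of -0.51 (SE 0.078, adjusted p = 0.0239) by edgeR. Without 1 library its adjusted p was 0.0149 to 0.108, over 0.05 without WT 1, WT 2, Fmo5-/- 1 or Fmo5-/- 2.

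Exons of 15 members overlap an exon of another gene, and reads in such a stretch are counted for neither gene when strand is not used. The sum of the counts of the separate strands over the count of both together is above 1 where such reads exist, and since the strands were read about equally it takes in reads of the neighbouring gene too. It was 1.80 for Slc25a35 (Rangrf on the opposite strand), 1.39 for Slc25a5-ps, 1.31 for Slc25a33, 1.17 for Slc25a46 and 1.14 for Slc25a10. Levels of these carriers are therefore uncertain. Members on chromosome 3, which carries Fmo5, were at least 9.20 Mb away from it, and 0 of the 2 that were tested (Slc25a44 and Slc25a24) passed.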

How the data were processed

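Liver RNA of 3 WT and 3 Fmo5-/- mice was sequenced as single reads of 75 bases. The authors clipped adapters, aligned the reads to mm10 and counted them per gene with STAR and used DESeq2 for the genotypes. The deposited count tables list 54446 genes with the counts of both strands and of each strand. The deposited comparison table also holds signal values, which the authors made by dividing counts by size factors. Within a library their ratio to the counts of both strands was the same for the most abundant genes (5253 to 5894 genes checked), and those counts were used here. Its columns of the authors' fold changes and p-values were not used. Reads that map to several places were 11.8% to 13.1% of a library in WT and 10.4% to 11.5% in Fmo5-/- mice. Reads in no gene were 6.86% to 7.02% in WT and 6.96% to 8.63% in Fmo5-/- mice. Reads in more than 1 gene were 3.52% to 3.62% and 3.72% to 3.98%, and unmapped reads 9.72% to 10.1% and 9.10% to 9.20%, in the same order. All were left out, and the bearing of these differences on the fold changes was not tested.

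In R 4.3.3, genes were kept by filterByExpr with a minimum count of 10 (16734 genes), given TMM factors and tested with edgeR 4.0.16 (quasi-likelihood, robust, two-sided) with Benjamini-Hochberg adjustment over all of them. A call needs an adjusted p under 0.05 together with a normalized mean of at least 500. Normalized counts are counts over TMM-scaled library size, at the mean size, while CPM are relative to the unscaled sum on genes. Standard errors are the log2 fold change over the square root of F. The steps were tested on simulated data. Exon lengths and positions come from GENCODE vM21, which holds 45 of the 48 member IDs with the same version, the other 3 being matched without it. The release used by the authors is not given in the sources used here. Promoter sequences come from RefSeq (GRCm38.p6).

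The members, substrate groups, partner and marker lists were chosen with earlier results of these data known. Named members are those with an adjusted p under 0.05, those with an unadjusted p under 0.05 and a mean of 500 or more, Slc25a13 and Slc25a20, which the study names, and the highest per length of each group. The other members are given to account for the family, Slc25a36 and Slc25a18 for their values, and none of them was named by that rule. The values of some genes are not reported here, although the counts include them. Partner genes are named where they passed or act directly beside a carrier. The alternatives were DESeq2 1.42.0, RLE factors, scaling without the 20 most abundant genes, no filter on low counts, the limit of 500 before the fit or left off, the reads of 1 strand, and leaving out each library.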

Additional observations from a re-analysis of the deposited data

How the results depend on the processing

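The count of SLC25 members called, 1 in the analysis reported, was 5 with DESeq2, 5 with no filter on low counts and 0 with the limit of 500 before the fit, and 0 to 0 when 1 library was left out. It was 1 with RLE factors, without the 20 most abundant genes in the scaling, with the reads of 1 strand and with no limit on the mean. The corresponding count over all genes, 126, was 744 with DESeq2, 981 with no filter, 53 with the limit before the fit and 229 with no limit on the mean, and 14 (without Fmo5-/- 1) to 259 (without Fmo5-/- 3) when 1 library was left out. Cpt2 had an adjusted p of 0.0705 and Gpd2 one of 0.0602 with the limit before the fit, and Cpt2 one of 0.0505 with 1 strand. The cause was not tested. The median over tested members kept its sign, from -0.12 to -0.073 over the fits that leave out 1 library.

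Genes that did not pass the test changed sign as follows. With the limit before the fit, log2 fold changes became 0.017 (Slc25a42), 0.025 (Slc25a11), 0.023 (Slc25a51) and 0.040 (Slc25a38). With the reads of 1 strand they became 0.21 (Slc25a35), -0.044 (Slc25a29), 0.031 (Slc25a38) and -0.040 (Slc25a12). Leaving out 1 library gave ranges through 0 for Slc25a30 (-0.55 to 0.84), Slc25a34 (-0.30 to 0.066), Slc25a37 (-0.070 to 0.20), Slc25a29 (-0.055 to 0.33), Slc25a53 (-0.21 to 0.0013), Slc25a51 (-0.13 to 0.095), Slc25a38 (-0.067 to 0.028), Slc25a27 (-0.045 to 0.17), Slc25a12 (-0.041 to 0.053), Cs (-0.13 to 0.00064) and Acly (-0.35 to 0.077).

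No paired analysis was possible because the labels give no replicate numbers shared by the genotypes. With 3 mice per genotype and 14 tested members under a mean of 500, differences in the low carriers are poorly resolved. Fold changes of further carriers that did not pass also moved by over 1.5 times on 1 library. Slc25a24 had 0.31 with all libraries, 0.19 without WT 1 and 0.48 without WT 3. Slc25a2 had -0.76, -0.45 without Fmo5-/- 3 and -1.15 without Fmo5-/- 2. Without Fmo5-/- 2 and without Fmo5-/- 1, Slc25a1 had -0.038 and -0.19, and Slc25a23 -0.052 and -0.23. Slc25a28 had 0.045 without Fmo5-/- 1, and Slc25a14 0.045 without Fmo5-/- 3 and 0.088 without WT 2. These carriers are examples.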

Other observations

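For the carriers with the widest spread, the genes below were chosen after their values were seen, from the 30 genes with a mean of 500 or more whose log2 values over the 6 mice were closest to each carrier. Their likeness is the reason they were chosen, so it is no finding, and the values are given as a description with no test. Alas1, the first enzyme of haem synthesis, had normalized counts of 2462, 28775 and 3771 in WT and 4166, 7283 and 10424 in Fmo5-/- livers, so that the WT mouse with the highest Slc25a30 was also the highest for Alas1. Arid5b, a chromatin regulator, had 1826, 5044 and 1898 in WT and 1719, 3398 and 4363 in Fmo5-/- livers, with the same mouse highest. Beside Slc25a25, Sik1, a kinase induced by cAMP signalling, had 487, 425 and 1119 in WT and 1798, 682 and 704 in Fmo5-/- livers, with the first Fmo5-/- mouse highest for both.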
